A study of Mus musculus with 12 samples.

Results

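The secreted Wnt antagonists measured here are 8 genes: the Dickkopf genes Dkk1, Dkk2 and Dkk3, the secreted Frizzled-related genes Sfrp1, Sfrp2 and Sfrp4, Frzb, and Wif1. They were taken as all non-control probes that carry one of these gene names on the array, which gave 10 of 41174 distinct probes, 2 each for Dkk1 and Sfrp1 and 1 for each other gene. The scanner software called all 10 probes well above background on each of the 12 arrays and saturated on none, and all 8 genes were among the 20836 genes tested.

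One-colour Agilent arrays were hybridised with RNA of MEFs, the fibroblasts that grow out of a dissociated mouse embryo, here at stage E12.5. The 4 groups, with 3 arrays each, were homozygous GR-C3 knockin cells with dexamethasone (GR-C3 Dex), the same cells with vehicle (GR-C3 vehicle), wild-type cells with dexamethasone (WT Dex) and wild-type cells with vehicle (WT vehicle). Dexamethasone (Dex), a synthetic glucocorticoid, was given at 100 nM for 6 hours. All cells shared a C57Bl/6 background. In the knockin, the gene of the glucocorticoid receptor (GR), Nr3c1, keeps in its exon 2 the start codon of the short GR-C3 isoform alone, those of the other isoforms being mutated, so the cells make 1 translational form of the receptor. The mice descend from a single targeted ES cell clone, and the hygromycin cassette was removed with Flp. The 3 samples of each group are named biological replicates, but separate embryos or cultures are not stated, so every p-value measures the spread between these samples, which may be technical.

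Wnt proteins bind Frizzled receptors together with the co-receptors LRP5 and LRP6, which stabilises beta-catenin and lets it act with TCF/LEF factors on target genes. Secreted antagonists limit this outside the cell by 2 routes: Dickkopf proteins bind LRP5 and LRP6, while the Frizzled-related proteins, Frzb and Wif1 bind the Wnt proteins themselves. In connective tissue and the skeleton these genes are known for setting how far Wnt signals reach, and in osteoblasts glucocorticoids are known to raise Dkk1.

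Levels are log2 signals of a probe minus the 75th percentile of its array, so 0 is the level of that percentile, and levels of different probes are not comparable. That percentile was 884 to 1821 signal units, and an array had 70.7 to 78.4% of its probes well above background. One array, WT vehicle replicate 1 by its label, differed from the others of its group. Its Fkbp5 level, a glucocorticoid-induced co-chaperone gene, was 1.51, against -2.64 and -2.74 on the other WT vehicle arrays and 1.89 to 2.15 in WT Dex. It was also the only array on slide 1. Fitted values are therefore given for all 12 arrays and, as "11 arrays", for the set that leaves this one out. The arrays lay on 4 slides, and GR-C3 and WT cells shared only slide 3, with 2 GR-C3 vehicle and 2 WT Dex arrays. The edit changes start codons and not the presence of the transcript, so no array level checks the genotype labels.

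The probes of the members whose levels differed most between genotypes or with Dex are shown by the first 30 of their 60 bases, since they define what was measured. Dkk1 and Sfrp1 have 2 probes each at different positions. In build mm7, per the file headers, the Dkk1 probes lie on the minus strand at chr19:30246086-30246145 and chr19:30245191-30245250, and the Dkk2 probe on the plus strand at chr3:131976322-131976381. The Sfrp1 probes lie on the plus strand at chr8:22232957-22233016 and chr8:22233645-22233704, and the Sfrp2 probe on the plus strand at chr3:83878918-83878977. The files assign them to these genes, and exon annotation of build mm7 was not used here.
Dkk1, probe 1: tactgtgttgtaaatcctcagtgtggcact
Dkk1, probe 2: atgcagaaggaagcctgccaacttaagcca
Dkk2: tcagagtgatgatgtcatcagaagtttata
Sfrp1, probe 1: cggaatcagtatagcgtggaaggagacagt
Sfrp1, probe 2: gtgcattagtaattagaaatagtctaacct
Sfrp2: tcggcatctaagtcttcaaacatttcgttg

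The other single probes, in build mm7, are at chr7:108032840-108032899 (minus strand) for Dkk3, chr13:18999998-19000057 (plus) for Sfrp4, chr2:80256141-80256200 (minus) for Frzb and chr10:120496251-120496310 (plus) for Wif1.

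The 250 bases before the start of Dkk1 and of Dkk2 are shown because these were the members called with Dex in WT cells. Dkk2 was called on 12 arrays. Dkk1 was called only without WT vehicle replicate 1, or with slide as a block, where that array, alone on slide 1, has no weight. They come from RefSeq on build GRCm38.p6, where 5 of the 8 members had such a window, and run 5′ to 3′ on the gene's strand. The Dkk1 window is chr19:30549497-30549746 on the minus strand and the Dkk2 window chr3:132085042-132085291 on the plus strand. Capitals mark matches, on either strand, to TGTTCT, a half-site of the glucocorticoid response element, or to CTTTGA, a TCF/LEF core.
Dkk1: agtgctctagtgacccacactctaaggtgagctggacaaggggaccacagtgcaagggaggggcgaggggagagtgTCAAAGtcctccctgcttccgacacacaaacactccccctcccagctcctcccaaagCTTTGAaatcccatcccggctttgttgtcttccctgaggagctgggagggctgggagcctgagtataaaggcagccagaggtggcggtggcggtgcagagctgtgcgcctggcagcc
Dkk2: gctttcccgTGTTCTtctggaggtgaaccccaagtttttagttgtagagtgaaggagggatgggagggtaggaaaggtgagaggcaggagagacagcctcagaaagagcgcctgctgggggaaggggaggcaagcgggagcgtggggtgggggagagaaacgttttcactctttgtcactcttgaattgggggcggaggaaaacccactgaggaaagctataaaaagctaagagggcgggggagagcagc

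Dkk2 held 1 half-site, which starts at position -241 from the start, and Dkk1 held 2 TCF/LEF cores, at -174 on the minus strand and at -117 on the plus strand. Of 32851 windows of this length, 16.1% held TGTTCT and 13.8% held CTTTGA on either strand. The full element, searched as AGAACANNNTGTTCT, which contains the half-site, was found in 3 windows (0.00913%) and in none of the 5 members'. Among the other members with a window, Frzb held 1 TCF/LEF core at -95, and Sfrp2 and Wif1 held no match. A match of this length is a description of the letters only.

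**Figure D1:**
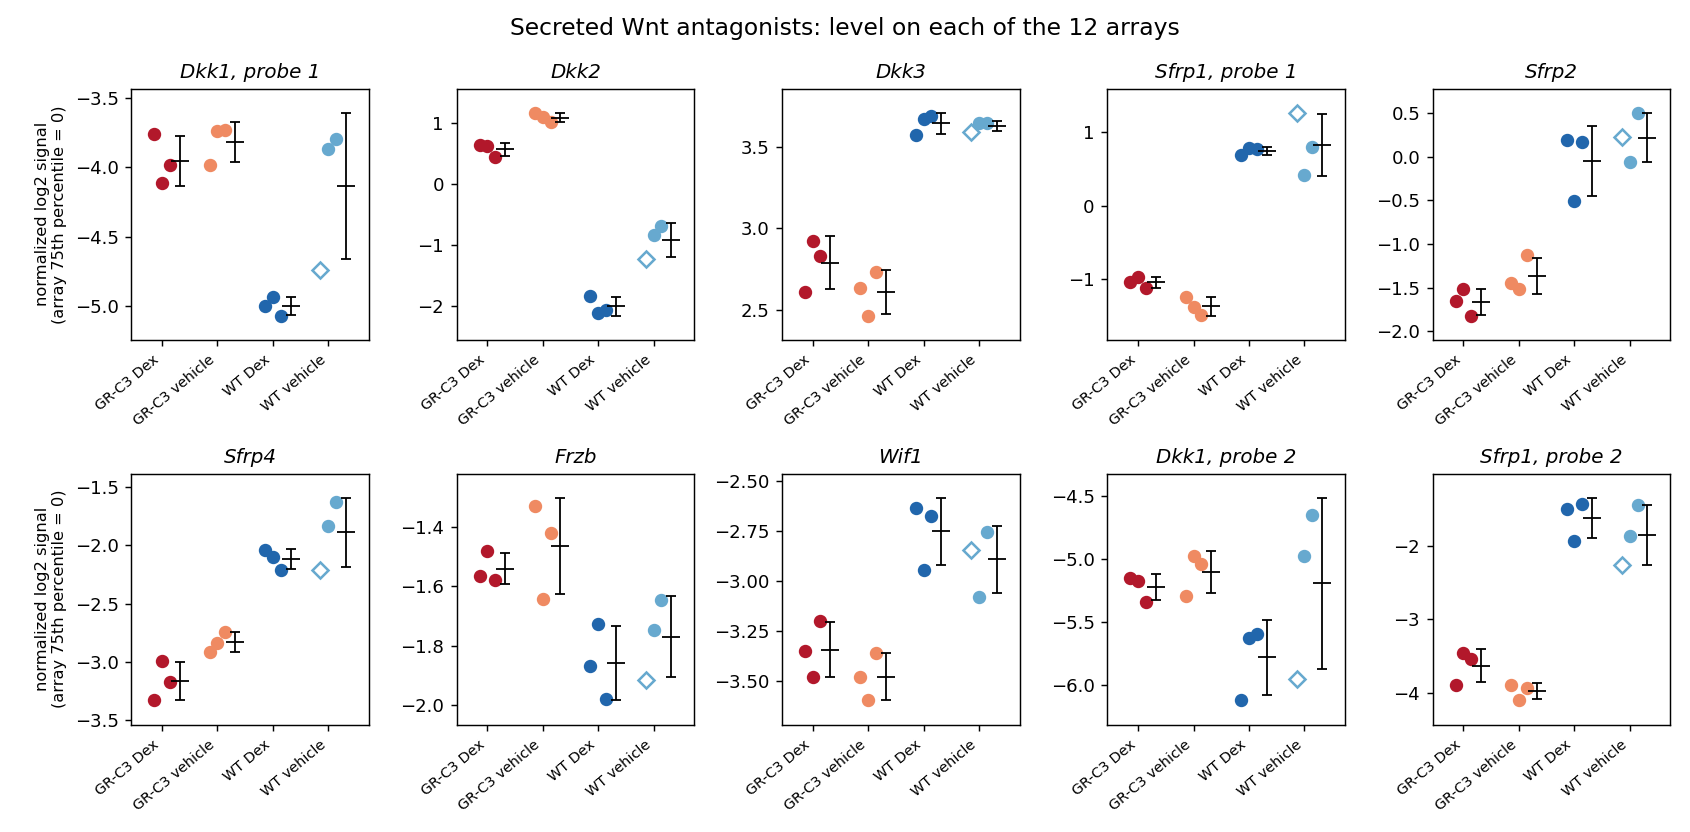
Level of each of the 10 probes (y axis, log2 signal minus the 75th percentile of the array) by group (x axis), with 1 point per array and the mean ± SD of 3 arrays as black bars. The open diamond is the array labelled WT vehicle replicate 1. Dkk2 lies at 0.44 to 1.15 in GR-C3 cells and at -2.12 to -0.69 in WT cells, while both Sfrp1 probes, Sfrp2, Dkk3, Sfrp4 and Wif1 lie lower in GR-C3 than in WT cells on every array.

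The genotype comparison under vehicle asks how cells with GR-C3 alone differ from WT cells before Dex. Dkk2, which binds LRP6 and can block or weakly activate Wnt signalling depending on the cell, was 4.02-fold higher in GR-C3 cells. Sfrp1 and Sfrp2, decoys that bind Wnt proteins, were 4.56-fold and 2.99-fold lower. Dkk3, a divergent Dickkopf, was 2.03-fold lower, Sfrp4 1.92-fold and Wif1 1.5-fold lower. The differences of Dkk1 and Frzb did not pass the test. Thus 6 of 8 members were called at an adjusted p under 0.05 with limma, 1 higher and 5 lower, against 24.8% of all genes tested (14.6% higher and 10.2% lower). The median difference of the 8 members was -0.76 and that of all genes 0.11. The 8 were chosen with earlier results of these data known, so their share of calls is a description. Sfrp5 and Dkkl1, not among the 8, were tested, and neither was called between genotypes. Under vehicle Sfrp5 lay at -5.22 to -4.20 in GR-C3 cells, against -5.02 to -4.16 in WT cells. Dkkl1 lay at -3.30 to -2.89, against -3.26 to -3.02, so the vehicle groups overlapped for both. Under Dex Sfrp5 lay at -4.32 to -4.21 in GR-C3 cells, above -5.20 to -4.40 in WT cells and without overlap. Dkkl1 overlapped there, at -3.18 to -2.47, against -3.36 to -2.59.

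Dkk2 had levels of 1.15, 1.09 and 1.01 on the GR-C3 vehicle arrays, against -1.23, -0.84 and -0.69 on the WT vehicle arrays. The GR-C3 arrays were the higher ones, and the groups did not overlap. The log2 difference, GR-C3 minus WT, was 2.01 ± 0.14 (SE, limma adjusted p = 4.25e-06), and 1.85 ± 0.11 on 11 arrays (adjusted p = 3.79e-06). Under Dex the levels of Dkk2 were 0.64, 0.62 and 0.44 in GR-C3 cells and -1.84, -2.12 and -2.06 in WT cells. This difference, also without overlap, was 2.57 ± 0.14 or 5.94-fold (adjusted p = 9.64e-07). Of 20836 genes, 0.499% had a larger genotype difference in size under Dex than Dkk2, and 1.11% under vehicle. The order of the group means was GR-C3 vehicle, GR-C3 Dex, WT vehicle and WT Dex from high to low, and no neighbouring groups overlapped.

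Sfrp1, read by its first probe, lay at -1.24, -1.37 and -1.49 in GR-C3 vehicle, against 1.26, 0.41 and 0.80 in WT vehicle. Every GR-C3 array was below every WT array. The difference was -2.19 ± 0.18 (adjusted p = 9.79e-06), and -1.97 ± 0.13 on 11 arrays (adjusted p = 4.80e-06). Under Dex, Sfrp1 lay at -1.04, -0.97 and -1.12 in GR-C3 cells and at 0.68, 0.79 and 0.77 in WT cells, a difference of -1.79 ± 0.18 (adjusted p = 4.05e-05). The second probe, a dimmer one, gave -3.89, -4.10 and -3.93 in GR-C3 vehicle, against -2.27, -1.87 and -1.45 in WT vehicle. Its differences were -2.11 ± 0.21 under vehicle and -2.0 ± 0.21 under Dex (limma p adjusted over all probes 4.74e-05 and 6.44e-05), so both probes gave the same direction and nearly the same size. Between the treatments of a genotype the Sfrp1 means lay closer together than between genotypes.

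Sfrp2 had levels of -1.44, -1.51 and -1.13 in GR-C3 vehicle, against 0.22, -0.07 and 0.49 in WT vehicle. Under Dex they were -1.66, -1.52 and -1.82 in GR-C3 cells and 0.19, -0.51 and 0.17 in WT cells. Under both treatments the genotypes did not overlap, and the WT Dex arrays were spread most, with an SD of 0.40. The differences were -1.58 ± 0.21 under vehicle (adjusted p = 0.000332) and -1.61 ± 0.21 under Dex (adjusted p = 0.000269), and -1.58 ± 0.24 under vehicle on 11 arrays.

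Sfrp4 lay at -2.91, -2.83 and -2.74 in GR-C3 vehicle, against -2.21, -1.83 and -1.62 in WT vehicle, and at -3.32, -2.99 and -3.17 in GR-C3 Dex, against -2.04, -2.10 and -2.21 in WT Dex. GR-C3 levels were again the lower ones on every array. Its differences were -0.94 ± 0.15 under vehicle (adjusted p = 0.00109) and -1.05 ± 0.15 under Dex (adjusted p = 0.000496).

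Dkk3 was 2.63, 2.46 and 2.73 in GR-C3 vehicle, against 3.59, 3.65 and 3.65 in WT vehicle, a difference of -1.02 ± 0.11 (adjusted p = 7.85e-05). In Dex the levels were 2.61, 2.92 and 2.83 in GR-C3 cells and 3.57, 3.67 and 3.69 in WT cells, a difference of -0.86 ± 0.11 (adjusted p = 0.000258). The WT arrays of both treatments lay within a narrow band that no GR-C3 array reached. Dkk3 differs from its relatives in that it is not known as a strong LRP6 ligand, and its direction here was opposite to that of Dkk2.

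Wif1, whose product binds Wnt proteins through its WIF domain, ranged from -3.60 to -3.36 in GR-C3 vehicle, against -3.08 to -2.75 in WT vehicle, and from -3.48 to -3.20 in GR-C3 Dex, against -2.94 to -2.64 in WT Dex. Its differences of -0.59 ± 0.13 under vehicle (adjusted p = 0.008) and -0.59 ± 0.13 under Dex (adjusted p = 0.00668) were the smallest among the members called under vehicle.

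Frzb, a Frizzled-related decoy first known from cartilage, ranged from -1.64 to -1.33 in GR-C3 vehicle, against -1.92 to -1.65 in WT vehicle, and from -1.58 to -1.48 in GR-C3 Dex, against -1.98 to -1.73 in WT Dex. The gaps between genotypes were narrow. Its differences of 0.30 ± 0.12 under vehicle (adjusted p = 0.0819) and 0.32 ± 0.12 under Dex (adjusted p = 0.0625) did not pass the test on 12 arrays. On 11 arrays the value under Dex passed (adjusted p = 0.0342), with the difference unaltered and a smaller pooled spread.

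Dkk1, the classical LRP5 and LRP6 inhibitor, differed between genotypes under Dex. Its first probe lay at -3.76, -4.12 and -3.99 in GR-C3 Dex, against -5.0, -4.94 and -5.07 in WT Dex. The difference was 1.05 ± 0.22 or 2.07-fold (adjusted p = 0.00497). Under vehicle Dkk1 lay at -3.99, -3.74 and -3.73 in GR-C3 cells and at -4.74, -3.87 and -3.80 in WT cells, the lowest value being that of WT vehicle replicate 1. That difference was 0.32 ± 0.22 (adjusted p = 0.316), and 0.02 ± 0.12 on 11 arrays (adjusted p = 0.934). By the second probe the Dex levels were -5.15, -5.17 and -5.34 in GR-C3 cells and -6.12, -5.62 and -5.60 in WT cells. This difference was 0.56 ± 0.28 (limma p adjusted over all probes 0.153). On 11 arrays the same difference had a p of 0.0202, through a smaller pooled spread. Both probes were dim: before scaling, the first read 28.9 to 110 and the second 17.9 to 61.0 signal units. With a normexp background correction on repaired local backgrounds the Dkk1 difference under Dex was 0.34 (adjusted p = 0.19), and with normexp on the backgrounds as deposited it turned to -0.76. The deposited local backgrounds include values of up to 65361 that the scanner software called outliers. In the repaired ones, each of these was replaced by the median local background of its array.

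Under Dex 7 of 8 members were called between genotypes, Dkk1 and Dkk2 higher and 5 lower, against 29.7% of all genes (17.6% higher and 12.1% lower). On 11 arrays 6 of 8 were called under vehicle, 1 higher and 5 lower, against 27.3% of all genes (16.2% higher and 11.1% lower). Under Dex all 8 were called, 3 higher and 5 lower, against 40.7% (24.6% higher and 16.1% lower). The genotype differences under vehicle and under Dex share no arrays, although 1 spread was pooled over all groups.

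**Figure D2:**
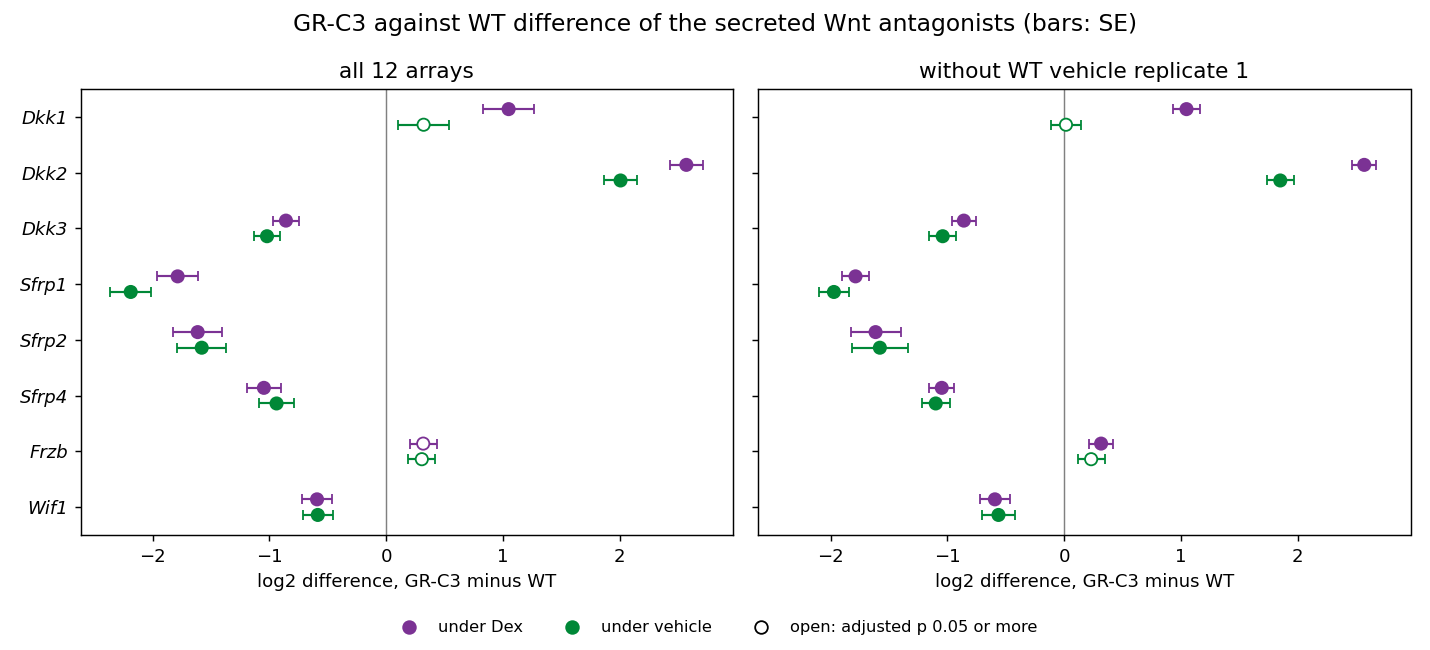
Log2 difference, GR-C3 minus WT (x axis), of each member (y axis) under Dex and under vehicle, with bars of ± SE, on all 12 arrays (left) and on 11 arrays (right). Filled points have an adjusted p under 0.05. Dkk2 stands at 2.57 and 2.01 with 12 arrays and Sfrp1 at -1.79 and -2.19, while Dkk1 is filled under Dex and not under vehicle.

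Slides bore on these values. Slide 3 sets GR-C3 vehicle against WT Dex and so mixes genotype with treatment (2 arrays each, no test). Within it Dkk2 differed by 3.21, Sfrp1 by -2.08 and Sfrp2 by -1.31. Dkk3 differed there by -1.13, Wif1 by -0.73 and Sfrp4 by -0.72. A slide block combines this contrast with the Dex change inside another slide. For the vehicle comparison that is slide 2, where Dex-treated WT cells had 1 array. For the Dex comparison it is slide 4, where vehicle-treated GR-C3 cells had 1 array. The block values are therefore no separate support for the slide 3 values. With slide as a block the difference under vehicle was 2.14 for Dkk2 (adjusted p = 0.000632), -2.01 for Sfrp1 (0.00236), -1.21 for Dkk3 (0.0112) and -1.03 for Sfrp4 (0.026). The calls of Sfrp2 at -1.33 (adjusted p = 0.0935) and Wif1 at -0.45 (adjusted p = 0.327) ended, with the direction kept. Under Dex the block ended the call of Wif1 (-0.71, adjusted p = 0.0815), while Dkk1 at 0.92 (adjusted p = 0.0291), Dkk2, Dkk3, Sfrp1, Sfrp2 and Sfrp4 passed.

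Markers of several cell types moved with genotype. All 10 fibroblast markers were above background on every array, with summed signals of 806 to 950 times the 75th percentile in GR-C3 vehicle and 733 to 878 in WT vehicle, and 2 of 10, Col3a1 and Dcn, were lower in GR-C3 vehicle. Of 4 chondrocyte markers 3 were tested and all 3 were lower in GR-C3 cells under both treatments (Col2a1 by -3.21, Sox9 and Acan by -1.0 each under vehicle). Their summed signal was 5.62 to 6.03 in GR-C3 Dex, 5.73 to 6.05 in GR-C3 vehicle, 47.3 to 56.2 in WT Dex and 43.2 to 47.1 in WT vehicle, and Matn1 was not well above background on all arrays of any group. Under vehicle, 1 of 3 skeletal muscle markers tested (Des, by 3.59), 2 of 3 epithelial, 1 of 2 endothelial, 3 of 4 neural and 1 of 3 osteoblast markers were higher in GR-C3 cells, and 1 of 4 leukocyte markers was lower, against 14.6% of all genes higher and 10.2% lower. On 11 arrays 3 of 10 fibroblast and 2 of 4 leukocyte markers were lower, against 11.1% of all genes. There 1 of 3 epithelial markers was higher, against 16.2%. Under Dex on 12 arrays 3 of 10 fibroblast, 1 of 3 epithelial and 1 of 4 leukocyte markers were lower, against 12.1%. All 4 neural, 2 of 3 muscle, 2 of 3 epithelial, 1 of 2 endothelial and 1 of 3 osteoblast markers were higher, against 17.6%. On 11 arrays under Dex 4 of 10 fibroblast markers were lower and 2 of 3 osteoblast markers higher, against 16.1% and 24.6%. The summed muscle signal was 2.75 to 2.98 in GR-C3 vehicle, against 0.45 to 0.47 in WT vehicle. The part of these cell types in the differences of the 8 members was not tested, and in such bulk RNA fewer cells of a type and less RNA per cell cannot be told apart.

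The Dex comparisons ask which genes change within 6 hours of GR activation. In WT cells Dkk2 fell 2.12-fold, by 1.08 on the log2 scale (SE 0.14, adjusted p = 0.0382), and no other member passed the test on 12 arrays. This call was lost in 10 of 12 fits that each left out 1 array, among them all 6 that left out a GR-C3 array (adjusted p of 0.0584 to 0.0946, with the change itself unaltered), and with a replicate block (0.112). On 11 arrays Dkk2 fell by 1.24 (SE 0.11, adjusted p = 9.87e-05) and Dkk1 by 1.17 (SE 0.12, adjusted p = 0.000235). In GR-C3 cells no member passed on 12 arrays. On 11 arrays Dkk2 passed, with a fall of 0.52 (SE 0.10, limma adjusted p = 0.0238). That fall was the same on 12 arrays, since the array left out is a WT one and only the pooled spread changed.

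In counts, 1 of 8 members was called in WT cells on 12 arrays, against 0.12% of all genes, and 2 of 8 on 11 arrays, against 12.2%. In GR-C3 cells limma called 0 of 8, against 0.101% of all genes (2465 genes had an unadjusted p under 0.05), and 1 of 8 on 11 arrays, against 3.47%. The median change of the 8 members was -0.11 in GR-C3 cells and -0.16 in WT cells, against -0.01 and -0.00 over all genes. The 2 Dex comparisons share no arrays, although 1 spread was pooled over all groups.

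Dkk2 in Dex-treated WT cells, at -1.84 to -2.12, lay below all 3 WT vehicle arrays at -1.23, -0.84 and -0.69. The WT vehicle array nearest to the WT Dex arrays was replicate 1. In GR-C3 cells Dkk2 lay at 0.44 to 0.64 with Dex and at 1.01 to 1.15 with vehicle, again without overlap, a log2 change of -0.52 ± 0.14 on 12 arrays (adjusted p = 0.184). When each comparison was fitted on its own 6 arrays, the adjusted p of Dkk2 was 0.0338 in GR-C3 cells and 0.35 in WT cells. Within slide 2 the single WT Dex array differed from 2 WT vehicle arrays by -1.07, and within slide 4 the 3 GR-C3 Dex arrays differed from 1 GR-C3 vehicle array by -0.44.

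Dkk1 in WT cells changed by -0.87 ± 0.22 on 12 arrays (adjusted p = 0.126), with the WT vehicle array at -4.74 lying nearer to the WT Dex arrays than to its own group. The second probe changed by -0.59 ± 0.28 on 12 arrays (p adjusted over all probes 0.314) and by -0.97 ± 0.18 on 11 arrays (0.0072). In GR-C3 cells Dkk1 changed by -0.14 ± 0.22 by the first probe and by -0.12 ± 0.28 by the second, and Dex and vehicle arrays overlapped. Within slide 2 the WT change was -1.17 by the first probe and -1.31 by the second. With slide as a block Dkk1 was called in WT cells at -1.17 (limma adjusted p = 0.00998). This is the same slide 2 contrast of 1 WT Dex array with 2 WT vehicle arrays. WT vehicle replicate 1, alone on slide 1, has no weight in it, so the block is no separate support. The WT change of this dim gene rested on the background correction. On 11 arrays with normexp on repaired local backgrounds it was -0.37 (adjusted p = 0.157), and on 12 arrays with normexp on the backgrounds as deposited it turned to 1.61 (adjusted p = 0.0889).

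The Wnt-binding members gave smaller values than Dkk2 in both genotypes, and in WT cells also smaller values than Dkk1. In GR-C3 cells Sfrp4, Sfrp1 and Sfrp2 changed by more in size than Dkk1, which changed by -0.14. Sfrp4 changed by -0.34 ± 0.15 in GR-C3 cells (adjusted p = 0.412) and by -0.23 ± 0.15 in WT cells (adjusted p = 0.457), and on 11 arrays by -0.39 ± 0.12 in WT cells (adjusted p = 0.0649). Sfrp2 changed by -0.30 ± 0.21 in GR-C3 cells and -0.27 ± 0.21 in WT cells. Sfrp1 changed by 0.33 ± 0.18 in GR-C3 cells and -0.08 ± 0.18 in WT cells, where the sign turned on 11 arrays (0.14 ± 0.13). None of these passed on either set of arrays. Frzb, Wif1 and Dkk3 had changes of -0.09 to 0.18 in both genotypes on 12 arrays, with SEs of 0.11 to 0.13, and also did not pass.

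**Figure D3:**
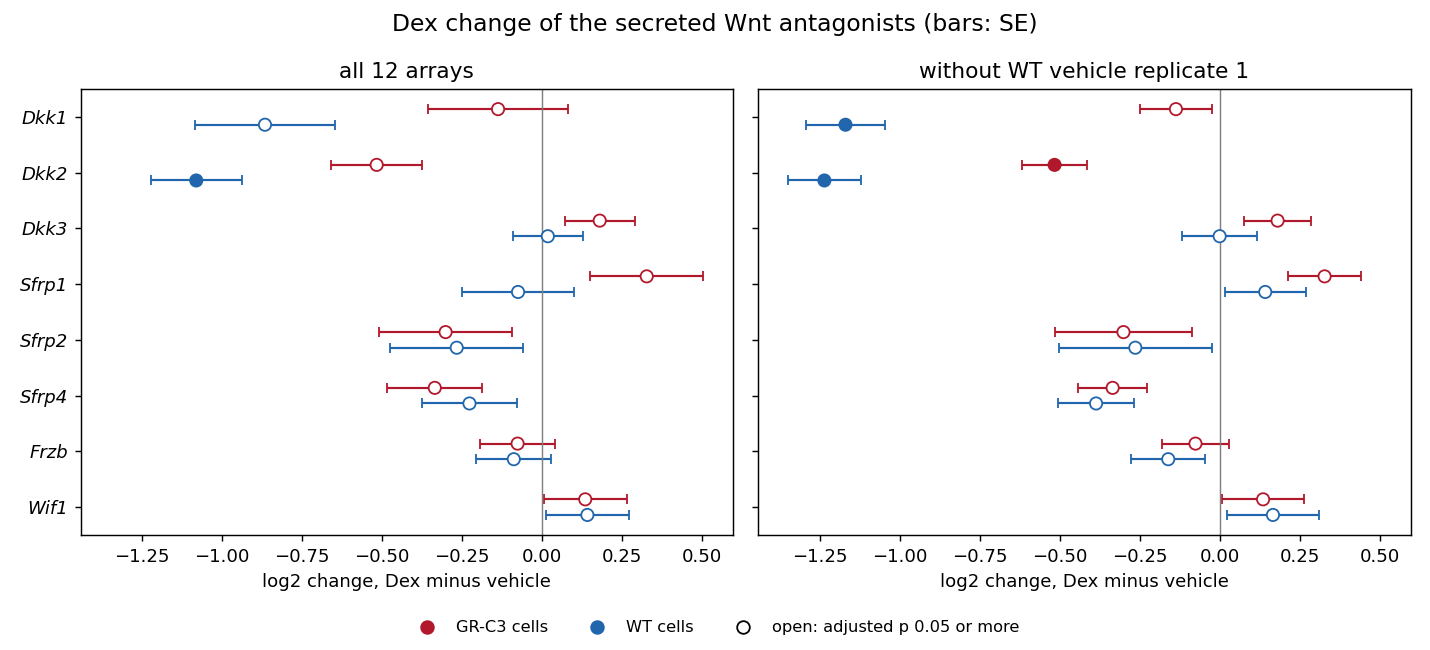
Log2 change, Dex minus vehicle (x axis), of each member (y axis) in GR-C3 and in WT cells, with bars of ± SE, on all 12 arrays (left) and on 11 arrays (right). Filled points have an adjusted p under 0.05: Dkk2 in WT cells at -1.08 with 12 arrays, and with 11 arrays Dkk2 at -0.52 in GR-C3 cells and -1.24 in WT cells and Dkk1 at -1.17 in WT cells.

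Whether the genotypes respond differently was tested by the interaction, in which the Dex change of WT cells is subtracted from that of GR-C3 cells. On 12 arrays limma called 0 of 8 members, against 0% of all genes (1282 genes had an unadjusted p under 0.05), with values of 0.73 ± 0.31 for Dkk1 (adjusted p = 0.796) and 0.56 ± 0.20 for Dkk2 (adjusted p = 0.705). On 11 arrays 1 of 8 was called, against 1.14% of all genes. This was Dkk1, at 1.03 ± 0.17 (adjusted p = 0.0206), which means a smaller fall in GR-C3 than in WT cells. Its second probe gave 0.85 ± 0.24 (p adjusted over all probes 0.15). The Dkk1 value was 0.94 with slide as a block (adjusted p = 0.251) and 0.24 with normexp on repaired local backgrounds on 11 arrays (adjusted p = 0.736). Dkk2 had 0.72 ± 0.15 on 11 arrays (adjusted p = 0.0604). For the other 6 members the interaction lay between -0.11 and 0.40 on 12 arrays and none passed.

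Other genes of the pathway were read from lists chosen, like the 8 members, with earlier results of these data known. Their counts under vehicle stand against 14.6% of all genes called higher and 10.2% called lower, and those under Dex against 17.6% and 12.1%. Of 11 further secreted antagonists and modulators, 9 were tested, and under vehicle 2 were higher and 2 lower in GR-C3 cells. Sostdc1, an LRP-binding antagonist, lay at 0.14, 0.21 and 0.26 in GR-C3 vehicle, against -1.37, -1.54 and -1.42 in WT vehicle (1.64 ± 0.12, adjusted p = 4.93e-06), and Apcdd1, a membrane-bound inhibitor, differed by 0.84. Igfbp4, an IGF-binding protein that also inhibits Wnt signalling, lay at 0.37, 0.23 and 0.40 in GR-C3 vehicle, against 1.90, 2.74 and 2.87 in WT vehicle (-2.17 ± 0.21, adjusted p = 4.57e-05), and Notum, a Wnt deacylase, differed by -0.84. Groups of these 4 genes differed in both directions, as did the 8 members. Under Dex the differences were 2.49 for Sostdc1 and -2.56 for Igfbp4.

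Of 5 secreted agonists tested (R-spondins and Norrin), Rspo3 and Rspo1 were lower in GR-C3 vehicle by -2.24 and -1.07, and Rspo4, above background on 2 of 3 WT vehicle arrays, was higher by 0.70, a call that ended on 11 arrays (adjusted p = 0.0571). Rspo2 differed by -1.16 on 12 arrays (adjusted p = 0.0576) and was lower by -1.79 on 11 arrays (adjusted p = 3.49e-06). Of 15 Wnt ligands tested (of 19), 6 were higher and 0 lower under vehicle, led by Wnt4 at 2.08 ± 0.16 (adjusted p = 7.63e-06), Wnt10b at 1.60, Wnt2 at 0.95 and Wnt7b at 0.90. Under Dex 6 ligands were higher and 1, Wnt6, lower (-0.83). On 11 arrays 7 were higher and 0 lower under vehicle, against 16.2% and 11.1% of all genes. Under Dex 8 were higher and 2 lower there, against 24.6% and 16.1%. The median difference of the ligands under vehicle was 0.36, against 0.11 over all genes. Wnt4 lay at -0.94, -1.01 and -1.12 in GR-C3 vehicle, against -2.81, -3.15 and -3.35 in WT vehicle, without overlap.

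Of 19 receptors and co-receptors tested (of 20), 2 were higher and 7 lower in GR-C3 vehicle, with Frizzled genes among the lower: Fzd9 by -2.82, Fzd1 by -1.87 and Fzd8 by -1.32. Lgr6, an R-spondin receptor, was higher by 0.85. Of 16 feedback and target genes of beta-catenin tested (of 17), 3 were higher and 6 lower. Lef1, a TCF/LEF factor, lay at -1.89, -1.82 and -1.95 in GR-C3 vehicle, against -4.90, -4.29 and -4.30 in WT vehicle (2.61 ± 0.27, adjusted p = 5.58e-05), and Ccn4 differed by 0.94. Ccnd1, the cyclin D1 gene, differed by -0.74 and Ccn5 by -0.59. The median of the targets was 0.04, against 0.11 over all genes.

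With Dex, limma called 0 of the 64 genes of these 5 lists on 12 arrays in either genotype, against 0.101% of all genes in GR-C3 cells and 0.12% in WT cells. An unadjusted p under 0.05 was reached by 18 of the 64 in GR-C3 cells and 20 in WT cells. Of all 20836 genes, 2465 reached it in GR-C3 cells and 3470 in WT cells. The same fit called 0 of 5 known glucocorticoid response genes in either genotype (median changes of 1.92 in GR-C3 cells and 1.45 in WT cells), and on 11 arrays it called all 5 in both. In WT cells that is no separate check, since the array left out was set apart by its Fkbp5 level. The summed signal of these 5 genes was 91.7 on it, against 16.8 and 15.8 on the other WT vehicle arrays. On 11 arrays 7 of the 64 genes were called in GR-C3 cells and 15 in WT cells, against 3.47% and 12.2% of all genes. On 11 arrays Rspo2, an R-spondin gene, fell by 0.89 with Dex in GR-C3 cells (SE 0.097, adjusted p = 0.00103) and fell by 1.64 in WT cells (SE 0.11, adjusted p = 1.44e-05). Its interaction was 0.75 (adjusted p = 0.0439), but on 12 arrays it was 0.11 ± 0.57 (limma adjusted p = 0.982). Its levels were 1.02, 1.22 and 1.16 in GR-C3 Dex, against 2.03, 1.88 and 2.16 in GR-C3 vehicle. In WT Dex they were 2.27, 2.15 and 2.11, against 1.90, 3.84 and 3.79 in WT vehicle. The WT vehicle value of 1.90 is that of replicate 1, and it lies below all 3 WT Dex arrays. Also on 11 arrays, Sostdc1 rose in GR-C3 cells by 0.60 (adjusted p = 0.0203). Fzd9 and Ror1 were called in both genotypes, Fzd9 at 0.49 in GR-C3 cells and 1.2 in WT cells and Ror1 at 1.27 in GR-C3 cells and 1.46 in WT cells, as was Wnt10a at 0.67 in GR-C3 cells and 0.39 in WT cells. Also called were Fzd1 at 0.67 and Wnt5b at -0.62 in GR-C3 cells. In WT cells the further called genes included Wnt11 at 1.23, Nkd2 at 0.57, Wnt16 at -0.82, Ccn4 at -0.76, Rnf43 at -0.73 and Lef1 at -1.35.

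**Figure D4:**
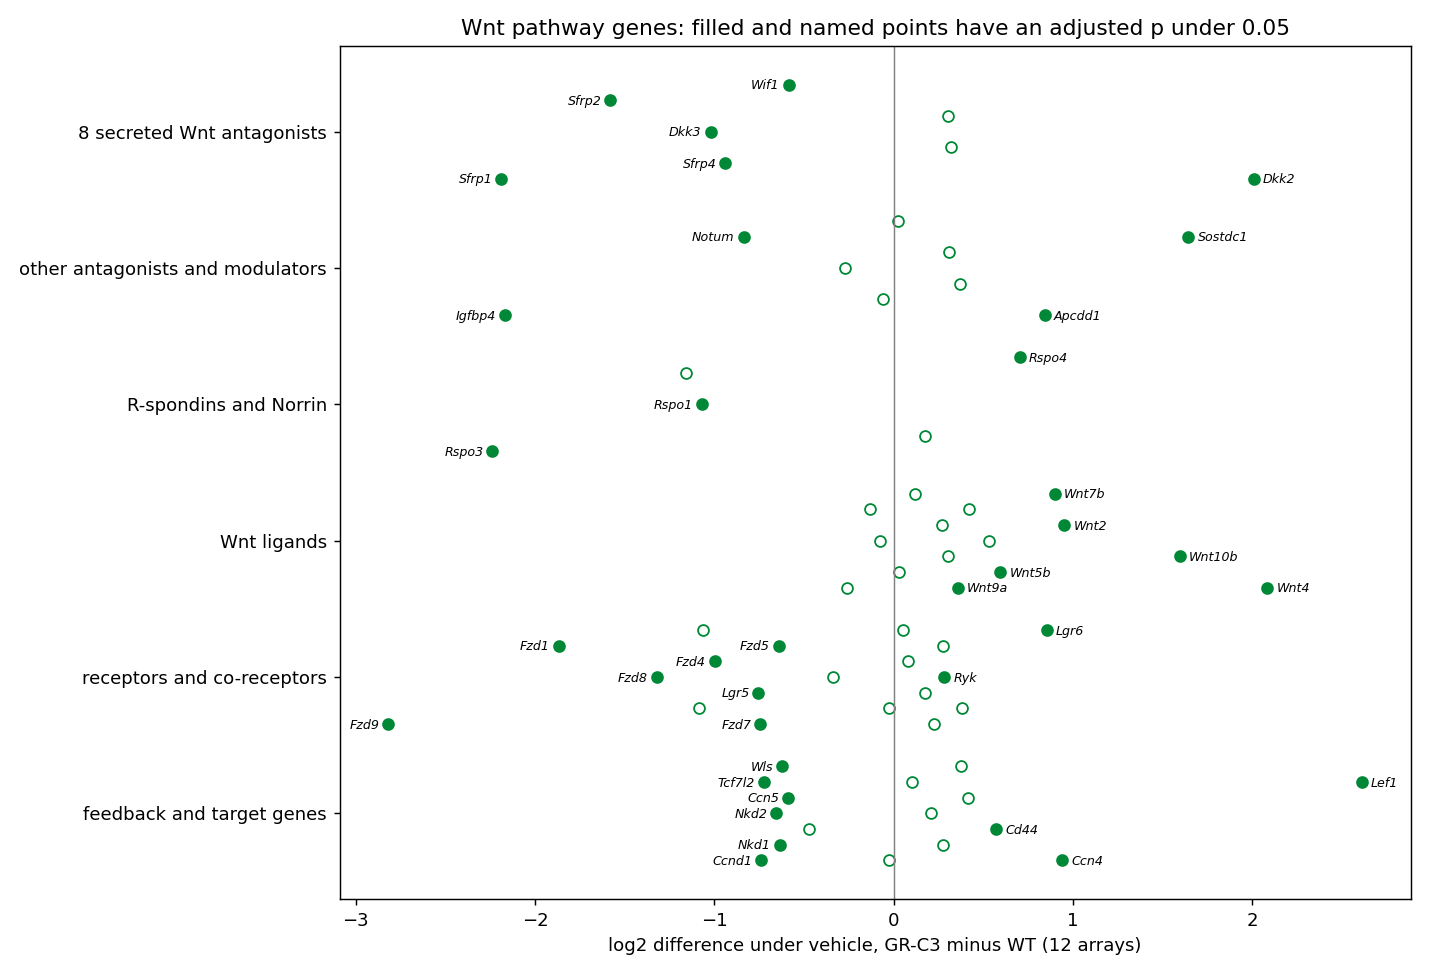
Log2 difference under vehicle, GR-C3 minus WT (x axis, 12 arrays), of the 8 members and of 5 lists of Wnt pathway genes (rows; the height within a row only separates points). Filled, named points have an adjusted p under 0.05: ligands are called only to the right, led by Wnt4 at 2.08, and Frizzled genes only to the left, led by Fzd9 at -2.82.

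For each member the 2 genes with the most similar pattern were taken by Pearson r of levels over the 12 arrays, among 15938 genes above background on all of them. These 12 points fall into 2 genotypes and share their arrays, so r is a description. Dkk2 was matched by Hoxc6, a Hox transcription factor gene, and Megf10, both at 0.993. Sfrp1 was matched by Comp, a cartilage matrix protein gene, at 0.993 and by Anpep at 0.992. Sfrp2 was closest to Ccn3 (0.98) and Tmem30b (0.979), Sfrp4 to Dtd1 (0.987) and Fam241b (0.986), and Dkk3 to Pcdhb6 and Olfml1 (0.986 each). Wif1 was closest to Scd1 (0.973) and Mturn (0.97), Dkk1 to Rasgrp1 (0.97) and Zik1 (0.965), and Frzb, with the narrowest range of levels, to Synj1 (0.943) and Casp1 (0.933).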

How the data were processed

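RNA of 12 samples was hybridised to 12 one-colour Agilent arrays. Per the file headers, the deposited intensity values are Agilent Feature Extraction 9.5.3.1 output (9.5 per the submitters' processing notes): a linear signal per spot after background subtraction. The series matrix matched it at all 45018 spots within 1e-09.

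Control spots (1639) and outlier spots were dropped, spots of a probe averaged, and each log2 value set relative to the 75th percentile of its array. Of 41174 probes, the 30934 detected well above background throughout at least 1 group were tested. Accessions named 22951 probes through a RefSeq gene table, symbols 6659, synonyms 3109, and 8455 kept the file's name. The probe with the highest mean stood for each of 20836 genes.

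Group means were fitted with limma 3.58.1 (R 4.3.3, eBayes) over all 12 arrays, and a Benjamini-Hochberg adjusted p under 0.05 was called. Errors of changes are SE. Only 3 arrays a group limit the precision, and outliers were not tested. The fit was tested on simulated data whose spread came from the groups other than WT vehicle. That test therefore does not cover the spread that WT vehicle replicate 1 adds. Named genes were the members, up to 4 called genes per list with the smallest p (else the 2 with the highest level) and the 2 genes most like each member. The members and lists, and the fit without 1 array, were chosen with earlier results of these data known. Alternatives covered normalization, background, filters, probe choice, slide and replicate blocks, separate fits and leaving out each array.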

Additional observations from a re-analysis of the deposited data

Results flagged for a closer look

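The Dex response of Dkk1 differed between genotypes by the interaction test on 11 arrays, at 1.03 ± 0.17 on the log2 scale (limma adjusted p = 0.0206). Dkk1 changed by -0.14 ± 0.11 in GR-C3 cells and by -1.17 ± 0.12 in WT cells there. Its WT Dex arrays lay at -5.0, -4.94 and -5.07, below the GR-C3 Dex arrays at -3.76, -4.12 and -3.99. The result needs WT vehicle replicate 1 to be left out: on 12 arrays the interaction was 0.73 ± 0.31 (adjusted p = 0.796). Over the alternatives on 11 arrays it ran from 0.24 to 1.04. The call was lost there with slide as a block and with normexp on repaired local backgrounds. The second Dkk1 probe was not called on 11 arrays either (limma p adjusted over all probes 0.15). Both probes were dim, and on 12 arrays with normexp on the backgrounds as deposited the interaction turned to -1.40.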

How the results depend on the processing

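The genotype differences of the 6 members called under both treatments (Dkk2, Dkk3, Sfrp1, Sfrp2, Sfrp4 and Wif1) kept their direction in all alternatives run, while the Dex and Dkk1 results depended on them. Their calls ended with normexp on the backgrounds as deposited for Sfrp4 and Wif1 under both treatments and Dkk3 under Dex, with slide as a block for Sfrp2 under vehicle and Wif1 under both, and for Wif1 under vehicle also on 11 arrays with repaired backgrounds. With 3 arrays a group the precision is limited, and the Dkk1 probes were dim. Leaving out an array leaves 2 in its group, and its spread is pooled with the other groups. Causes were not tested.

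Dex called 1 member in WT cells on 12 arrays. It called 0 with normexp on the backgrounds as deposited, with no filter, with a replicate block or with the compared groups alone. It called 2 with slide as a block, where WT vehicle replicate 1, alone on its slide, has no weight, and 0 to 2 when an array was left out. Without WT vehicle replicate 1 it called 2 with quantile normalization, a replicate block, every probe, slide as a block or the compared groups alone. In GR-C3 cells, against 0, it called 1 with the compared groups alone, 0 to 1 when an array was left out, and 1 without WT vehicle replicate 1 with quantile normalization, repaired backgrounds, a replicate block, every probe or the compared groups alone. The interaction, against 0, called 0 to 1 when an array was left out, and without WT vehicle replicate 1 it called 1 with quantile normalization or every probe and 2 with a replicate block. The genotype comparison under Dex called 3 members with normexp on the backgrounds as deposited, against 7.

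Signs turned as follows. With normexp on the backgrounds as deposited, Dex in WT gave Dkk1 1.61, Dkk3 -0.54, Sfrp4 0.82 and Frzb 0.59, Dex in GR-C3 gave Dkk1 0.21 and Frzb 0.031, the interaction gave Dkk1 -1.40, Dkk2 -0.32, Sfrp2 0.060 and Frzb -0.56, and GR-C3 against WT under Dex gave Dkk1 -0.76 and Frzb -0.21. For Dex in WT, Sfrp1 was 0.080 with the mean over probes and 0.078 with slide as a block, where Dkk3 was -0.073. Leaving out 1 array gave Dkk3 -0.0054 to 0.053 and Sfrp1 -0.28 to 0.14. Without WT vehicle replicate 1, Dkk3 was -0.017 and Sfrp1 0.15 with quantile normalization, -0.015 and 0.16 with repaired backgrounds, -0.0015 and 0.14 with every probe or the compared groups alone, and -0.073 and 0.078 with slide as a block, and Sfrp1 was 0.13 with a replicate block. For the interaction, Frzb was -0.037 with quantile normalization, and leaving out 1 array gave Sfrp4 -0.24 to 0.052, Sfrp2 -0.27 to 0.11, Wif1 -0.10 to 0.086 and Frzb -0.077 to 0.085. Without WT vehicle replicate 1, Sfrp4 was 0.022 with repaired backgrounds, 0.024 with a replicate block and 0.052 with every probe. Under vehicle, Dkk1 was -0.023 with slide as a block on 12 or 11 arrays and -0.049 with quantile normalization on 11.

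Of all genes, Dex in WT called 25, against 1020 with slide as a block and 0 to 2547 when an array was left out. Dex in GR-C3 called 21, against 123 with quantile normalization, 317 with slide, 692 with the compared groups alone and 2 to 722 when an array was left out. The interaction called 0, against 36 with slide and 0 to 237 when an array was left out. The genotypes differed in 5160 genes under vehicle, against 1631 with slide and 3240 to 5687 when an array was left out. Under Dex they differed in 6179, against 3240 with slide and 4001 to 8482 when an array was left out. With normexp on the backgrounds as deposited the counts were 358 under vehicle and 424 under Dex, and on repaired backgrounds 4548 and 4546. The deviations of same-numbered arrays of different groups had a median r of 0.0084, with r over 0.1 in 4 of 18 pairs. Among pairs with different numbers the median was -0.0056, with r over 0.1 in 5 of 36. With so few arrays a group, these values cannot decide whether the numbers pair the samples. With a replicate block Dex in WT called 0 of all genes, and Dkk2 had an adjusted p of 0.112.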
